A study of Mus musculus with 127 samples.

Results

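Sequential genome architecture mapping slices 1 nucleus serially and sequences the DNA of each slice (a nuclear profile), which gives stretches of the genome a position along the direction of cutting. The nuclei described here are the 3 that were sampled by 8 or fewer profiles, Cell26 with 7 and Cell27 and Cell28 with 8 each, out of 10 nuclei in the series. They are set against the 7 nuclei with 10 or more profiles: Cell38 with 10, Cell39 with 11, Cell19 and Cell20 with 12, Cell25 with 15, Cell18 with 16 and Cell17 with 23. The groups were taken from the number of profiles that the labels give to a nucleus, which for the whole series comes to 122 profiles, 23 in the 3 nuclei and 99 in the 7.

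Every nucleus came from F123, an established mouse embryonic stem cell line of a CAST x 129 cross, grown with LIF and passaged free of feeder cells, with no treatment in either group. Each nucleus is 1 cell and gives 1 value, and the labels do not name separate cultures, so the p-values below measure only the spread between these cells. The titles start with either B16F or B18F, taken here as batches. All 3 nuclei with few profiles carry the prefix B18F, as do Cell25, Cell38 and Cell39 among the others, while Cell17, Cell18, Cell19 and Cell20 carry B16F. The files hold positions of DNA and no RNA, so stem cell identity could not be checked against marker genes.

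In interphase nuclei each chromosome fills a territory of its own. Gene-dense chromatin, which is mostly active and replicates early, tends to gather in the nuclear interior and around speckles, and gene-poor chromatin, which is mostly silent and replicates late, tends to lie at the nuclear lamina and around nucleoli. A cutting axis sees only 1 coordinate of this arrangement: a slice through the middle of a nucleus holds both interior and rim, whereas a slice near a pole holds mostly rim.

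In the deposited positions the nuclei with few profiles spanned a shorter axis at an equal step. The deposited positions, 1 for each located 10 kb window, lay in all 10 nuclei mostly on regular steps of 0.2 axis units (the unit has no name in the files), which are called grid positions here. Cell26 covered 1.2 axis units with 7 grid positions, and Cell27 and Cell28 covered 1.4 with 8 each. The nuclei with many profiles covered from 2 to 4.4 axis units with 11 to 23 grid positions. Fewer profiles therefore stood for a shorter span at an equal step in these positions. Whether the step was measured or assigned is not given, so the positions cannot show how finely the nuclei were cut. The groups are called by their number of profiles here. How thick the slices were, and whether the axis was sampled from pole to pole, was not tested.

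Fewer profiles did not mean fewer located windows. Cell26 had 135501 located windows over its 2 files, Cell27 had 131602 and Cell28 had 161075, against 56975 to 190076 in the nuclei with many profiles. The mean was 142726 ± 16010 (SD, n = 3) against 113427 ± 43743 (SD, n = 7), a difference of 0.42 on the log2 scale with an exact permutation p of 0.267 (two-sided, all 120 splits of 10 nuclei into 3 and 7, for which the smallest possible p is 0.00833). Per profile, the few-profile nuclei held more windows, 16450 in Cell27, 19357 in Cell26 and 20134 in Cell28, and the others held 5180 to 12672, with no overlap. That quotient contains the number of profiles that defined the groups, so it is given without a test. Read depth behind a window is unknown, because the files carry no counts.

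Windows were spread over the grid positions of a nucleus unevenly in both groups. The fullest position of Cell26 held 29.1% of its on-grid windows, that of Cell27 46.6% and that of Cell28 26.6%, and the fullest position held 8.39 to 16.3 times the windows of the emptiest. The evenness of positions, the effective number of filled positions as a percent of those present, was 74.5% in Cell26, 66.3% in Cell27 and 80.9% in Cell28. In the nuclei with many profiles it ran from 32.1% in Cell39 to 94.4% in Cell19, and the group difference of 7.64 points was within the spread (exact permutation p = 0.525).

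The nuclei with few profiles differed from the others in how gene content ran along the axis. In Cell26, Cell27 and Cell28, gene-dense bins had on average higher positions on the axis than gene-poor bins. In the nuclei with many profiles hardly any such gradient was measured. For each file the Spearman correlation was taken over autosomal 1 Mb bins between the mean position of a bin and its number of RefSeq protein-coding genes. Cell26 had 0.210 in file 0 and 0.225 in file 1. Cell27 had 0.180 and 0.184, and Cell28 had 0.143 and 0.162. All 6 values were positive and above every value of the other group. The nuclei with many profiles lay between −0.099 and 0.015 over their 14 files, and 5 of the 7 were negative in both files.

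**Figure D1:**
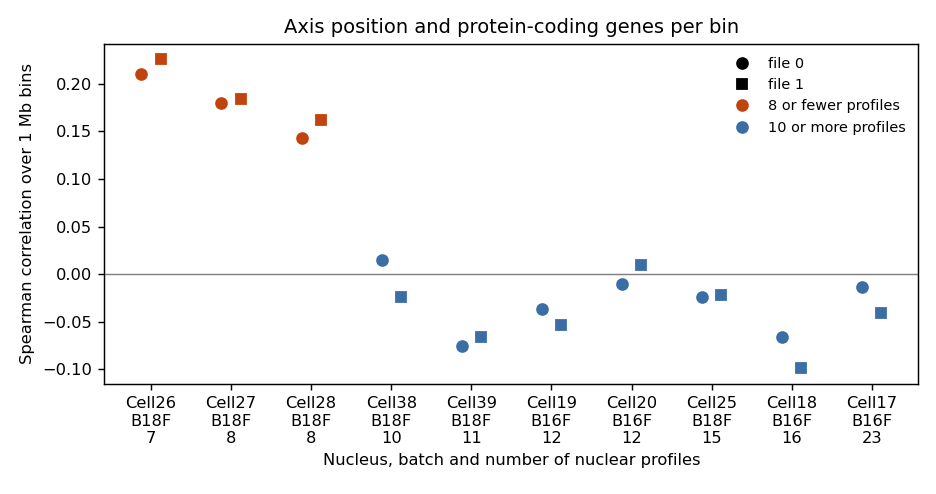
Spearman correlation between axis position and protein-coding genes per 1 Mb bin (vertical axis) for file 0 (circles) and file 1 (squares) of each nucleus, with nuclei ordered by number of profiles. The 3 nuclei with 8 or fewer profiles (orange) lie between 0.143 and 0.225, and the 7 with 10 or more (blue) lie between −0.099 and 0.015.

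Since nuclei may have been cut in either orientation, the size of the correlation was compared without its sign. It was 0.218 in Cell26, 0.182 in Cell27 and 0.152 in Cell28, and from 0.0099 in Cell20 to 0.082 in Cell18 among the others. The means were 0.184 ± 0.033 (SD, n = 3) and 0.040 ± 0.028 (SD, n = 7), a difference of 0.144. The exact permutation p was 0.00833, the smallest that 120 splits can give. Over the 10 results compared per nucleus the adjusted p was 0.0833, so the difference did not pass the threshold of 0.05 after Benjamini-Hochberg adjustment. Among the 10 results, 10% were under an unadjusted 0.05 and 0% after adjustment, and this was the 1 result whose groups did not overlap (10%).

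The difference was as large within the batch that the groups share. Against Cell25, Cell38 and Cell39 of the same batch the difference was 0.146, with an exact permutation p of 0.1, the smallest that 3 against 3 nuclei can give. Leaving out each nucleus in turn gave differences from 0.127 to 0.160 (exact permutation p from 0.0119 to 0.0278).

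Bins without a gene had the lowest mean position in each of the 3 nuclei, and the nuclei differed in how far the rise went on. In Cell26 the mean position rose with each class of bin, from 27.3% of the sampled axis for bins without a protein-coding gene to 31.3% for 1 to 2 genes, 33.6% for 3 to 5, 35.3% for 6 to 10, 36.6% for 11 to 20 and 38.8% for over 20. In Cell27 it rose from 49.4% without a gene to 54.7% at 11 to 20 genes and was 54.5% above 20. In Cell28 it rose from 33.1% without a gene to 37.5% at 3 to 5 genes and then stayed between 37.6% and 38.0%. Among the nuclei with many profiles the largest changes ran downwards, in Cell19 from 50.8% without a gene to 47.3% above 20 genes and in Cell18 from 48.0% to 45.5%. In Cell17, Cell20, Cell25, Cell38 and Cell39 these 2 classes lay within 1 point of each other.

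**Figure D2:**
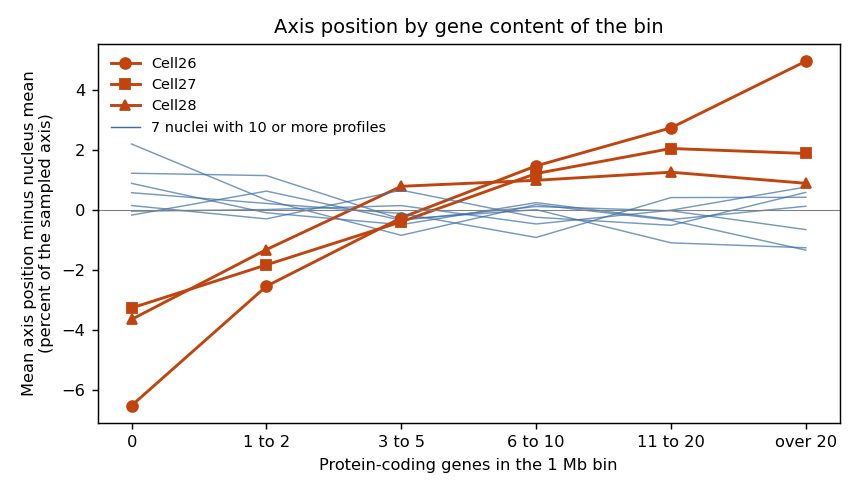
Mean axis position of autosomal 1 Mb bins minus the mean of the nucleus, in percent of the sampled axis (vertical axis), by the number of protein-coding genes in the bin (horizontal axis). Cell26, Cell27 and Cell28 (orange) rise from below 0 in bins without a gene to above 0 in bins with 6 or more, and blue lines show the 7 nuclei with many profiles. In bins without a gene the 3 orange points lie farther from 0 than every blue line, whereas above 20 genes some blue lines lie as far from 0 as Cell28.

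Set as a contrast, the 660 autosomal bins with at least 11 genes lay higher on the axis than the 763 bins with at most 2, by 7.52 points of the sampled axis in Cell26, 4.34 in Cell27 and 3.28 in Cell28. The mean was 5.04 ± 2.21 points (SD, n = 3). In the nuclei with many profiles the same contrast was −0.67 ± 0.99 points (SD, n = 7), from −2.33 in Cell18 to 0.28 in Cell20, and 0.78 ± 0.89 in size without sign. Sorted the other way, bins in the upper tercile of the axis held 10.9 genes on average in Cell26 against 6.77 in the lower tercile. Cell27 had 10.9 against 7.43, and Cell28 had 10.5 against 7.46. Upper over lower was thus 1.61, 1.47 and 1.40, and it lay between 0.824 and 1.04 in the nuclei with many profiles. With the tercile that held more genes taken as the upper one in every nucleus, the nuclei with many profiles had 1.01 to 1.21, with Cell18 highest. These contrasts restate the gradient in genes and axis units and are no further evidence for it.

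The bins that fell in the same outer tercile of ranked positions in all 3 nuclei showed a larger contrast in gene number. These terciles are again of bins, so their members need not lie near the ends of the axis. Of 2414 autosomal bins placed in all 3, 140 (5.80%) were in the upper tercile of Cell26, Cell27 and Cell28 alike, and they held 14.4 protein-coding genes per bin. The 104 bins (4.31%) in the lower tercile of all 3 held 6.74, against 8.52 over all bins. Gene-free bins made up 2.14% of the upper set and 26.9% of the lower set. For Cell25, Cell38 and Cell39 of batch B18F, the upper set had 114 bins (4.72%) with 8.79 genes per bin. Their lower set had 100 bins (4.14%) with 8.29. The orientations of the nuclei relative to each other are unknown in both trios, so these counts hold for the axes as deposited. The sets were formed from the positions themselves and are a description. Their contrast in genes restates the gradient above and is no further evidence for it.

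The fullest slice of each of the 3 nuclei held the fewest genes per Mb. In Cell26 the position at the low end was the fullest, with 27859 windows, and its windows lay in bins with 8.18 genes per Mb, the fewest of any of its positions. Positions 2, 3 and 4, with 19722, 3782 and 26820 windows, had 8.65, 9.06 and 9.11 genes per Mb, and positions 5, 6 and 7, with 10187, 2242 and 5144 windows, had 10.9, 10.8 and 10.0. In Cell27 the fullest position was the third, with 47789 windows at 8.39 genes per Mb, and the other positions had 9.37 to 10.2. The low end of Cell27 had 9.93 and its high end 9.73, so genes per Mb did not rise from end to end. In Cell28 the third position was also the fullest, with 29160 windows at 8.55 genes per Mb, and the sparse positions 5 to 8 had 9.54 to 10.3. The fullest position had the fewest genes per Mb in 3 of the 3 nuclei with few profiles and in 0 of the 7 with many, a count made after the values were seen. The first group had 7 or 8 positions per nucleus and the second 11 to 23, so the counts have unlike chance levels.

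**Figure D3:**
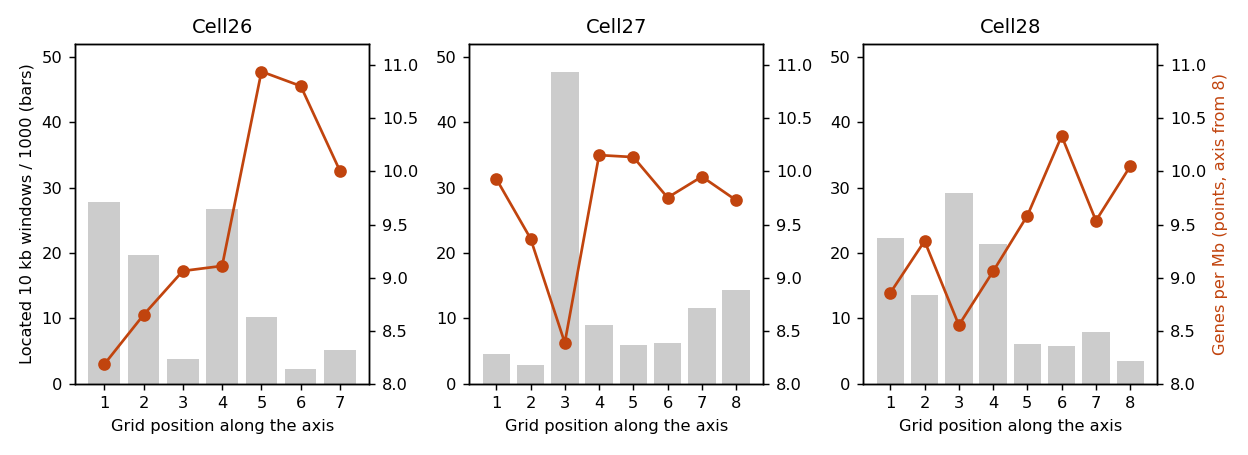
Located 10 kb windows (grey bars, left axis, divided by 1000) and protein-coding genes per Mb in the bins of those windows (orange points, right axis, which starts at 8) at each grid position of Cell26, Cell27 and Cell28. The fullest position of each nucleus has its lowest genes per Mb: 8.18, 8.39 and 8.55.

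Over grid positions the rank correlation of windows and genes per Mb was −0.57 in Cell26 (7 positions), −0.19 in Cell27 and −0.98 in Cell28 (8 positions each), and from −0.49 to 0.20 in the nuclei with many profiles. The rank correlation of position along the axis and genes per Mb was 0.86 in Cell26, 0.17 in Cell27 and 0.76 in Cell28, and from −0.41 to 0.63 in the others. These are descriptions over positions that share a nucleus. With the number of windows at a bin's positions partialled out of the gene density correlation, a setting chosen with the data in view, Cell26 kept 0.140, Cell27 0.097 and Cell28 0.051. The nuclei with many profiles then had sizes from 0.0022 to 0.082, so the groups overlapped, and the difference fell to 0.054 (exact permutation p = 0.0583).

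The correlations were smaller over single windows than over bins. Over single 10 kb windows, likewise a setting added later, Cell26 had 0.105, Cell27 0.047 and Cell28 0.039, and the largest size in the other group was 0.0385 in Cell18, so that the groups nearly touched (difference 0.045, exact permutation p = 0.00833). With 1 window drawn per bin the difference was 0.048 (exact permutation p = 0.025) and the groups overlapped, with 0.049 as the lowest value of the first group and 0.066 as the highest of the second. Centring positions and gene ranks within each chromosome left 0.224 in Cell26, 0.184 in Cell27 and 0.147 in Cell28, close to the values without centring.

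The base composition of promoters was weakly related to axis position in nuclei of both groups. For 1924 autosomal bins with at least 1 RefSeq promoter sequence (GRCm38.p6, 300 bases around the start of a gene, 16457 promoters of protein-coding genes), mean promoter G+C correlated with axis position at 0.147 in Cell26, 0.093 in Cell27 and 0.091 in Cell28 (mean of both files). The nuclei with many profiles lay between −0.104 and 0.014, and without sign Cell18, at 0.104, was above Cell27 and Cell28, so the groups overlapped. Promoter G+C and gene number per bin had a Spearman correlation of −0.086 over these bins. This measure was added after the gene density values were known, and G+C of whole windows was not used here.

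Bins of ribosomal protein, proteasome and zinc finger genes had mean positions towards the high end of the axis in all 3 nuclei, and those of olfactory and vomeronasal receptors towards the low end. These are described without a test, since the lists were chosen with results known. A list's shift is the mean axis position of the bins that hold its members minus that of all gene-holding bins. Bins of ribosomal protein genes (101 genes in 92 bins), which encode the protein part of the ribosome, lay 3.08 points higher in Cell26, 2.64 in Cell27 and 0.79 in Cell28. Bins of proteasome subunit genes (40 genes in 38 bins), for the protease that degrades ubiquitin-tagged proteins, lay 4.92, 3.90 and 1.15 points higher. Zinc finger protein genes (397 genes in 194 bins), many of them DNA-binding repressors, were at 2.60, 2.45 and 0.36. The bins of the 3 lists held 20.9, 21.8 and 18.7 protein-coding genes on average, against 8.52 over all autosomal bins. Whether their shifts differ from those of other bins with as many genes was not tested. In the nuclei with many profiles each of these 3 lists was higher in 4 of 7, with means of −0.32 ± 1.72, 0.76 ± 2.97 and −0.21 ± 0.98 points, and the groups overlapped in each.

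Olfactory receptor bins went the other way, although they are rich in genes. These receptors are odorant sensors of the nasal epithelium, arranged in large clusters that are silent in most other cells. Their 1110 genes lay in 84 bins with 25.7 protein-coding genes per bin on average. The shift of these bins was −4.91 points in Cell26, −3.35 in Cell27 and −1.52 in Cell28, whereas the nuclei with many profiles lay between −0.23 and 3.36 points. As deposited, this was the 1 list of 12 (8.33%) whose groups did not overlap. In size without sign the groups overlapped in it, as in all 12 lists (0%), since Cell39 at 3.36 and Cell18 at 1.55 points reached into the first group. Bins of vomeronasal receptors, the pheromone sensors (355 genes in 54 bins), had shifts of −4.68, −1.29 and −2.64 points, and those of the other group ran from −3.77 to 3.29 and overlapped. Without both receptor families in the gene count the gene density correlation rose to 0.247 in Cell26, 0.207 in Cell27 and 0.167 in Cell28.

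**Figure D4:**
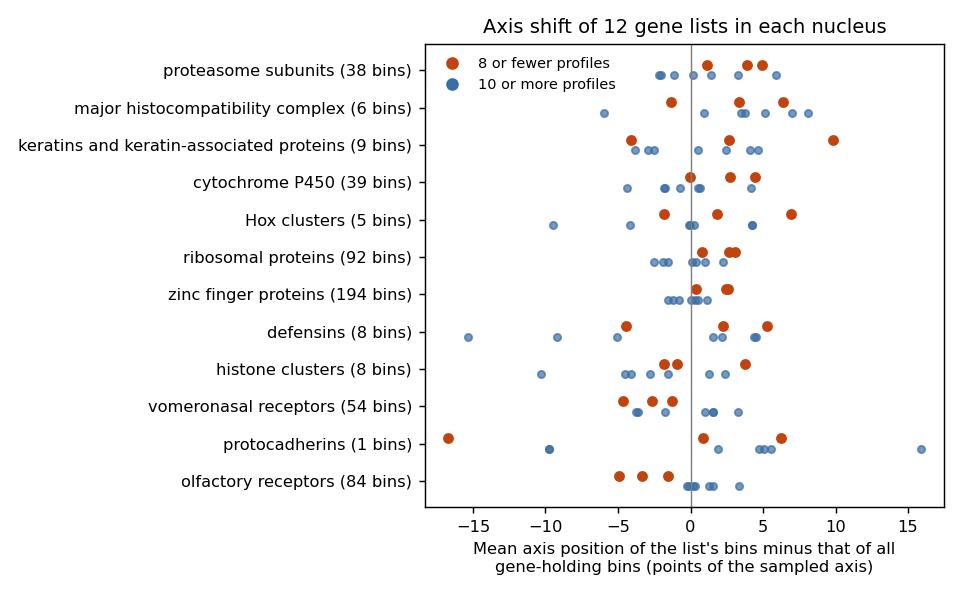
Mean axis position of the bins of 12 gene lists minus that of all gene-holding bins (horizontal axis, points of the sampled axis) in the 3 nuclei with few profiles (orange) and the 7 with many (blue). Olfactory receptor bins lie at −4.91, −3.35 and −1.52 points in the first group and between −0.23 and 3.36 in the second, with the axis of each nucleus as deposited.

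The smaller lists varied in sign from nucleus to nucleus. Keratin and keratin-associated genes (9 bins), the structural proteins of epithelium and hair, were at 9.81 points in Cell26, −4.08 in Cell27 and 2.68 in Cell28. Bins of the Hox clusters (5 bins), which pattern the body axis, were at 6.92, −1.81 and 1.86. Histone clusters (8 bins) were at −0.93, 3.74 and −1.80, defensins (8 bins), which are antimicrobial peptides, at 5.25, 2.26 and −4.48, and the major histocompatibility complex (6 bins) at 6.41, 3.35 and −1.33. Cytochrome P450 genes (39 bins) were at 4.42, 2.71 and −0.0062, and the single protocadherin bin was at −16.7, 0.89 and 6.21. For each of these lists the values of the groups overlapped.

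At the level of single loci the 3 nuclei shared little. The bin of Pou5f1, the Oct4 gene of pluripotent cells, lay at 48.2% of the sampled axis in Cell26, 52.5% in Cell27 and 45.0% in Cell28. It is also among the 5 autosomal bins with most genes, with 61. The Nanog bin was at 8.1%, 56.1% and 45.9%, and the Sox2 bin, which holds 3 genes, at 74.6%, 34.5% and 41.9%. Klf4, Esrrb and Zfp42, further factors of the pluripotency network, were at 32.2%, 13.5% and 29.3% in Cell26, at 55.2%, 63.6% and 48.5% in Cell27, and at 42.0%, 24.7% and 32.0% in Cell28. The bins of these 6 genes thus ran from 8.1% to 74.6% of the axis in Cell26, from 34.5% to 63.6% in Cell27 and from 24.7% to 45.9% in Cell28.

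Gene deserts lay lower than most of the gene-densest bins. The bin at chr7:45000001-46000000 (66 genes, among them Nucb1 and Tulp2) lay at 34.8%, 61.3% and 49.6%, that at chr11:69000001-70000000 (62 genes, with Efnb3 and Wrap53) at 42.5%, 68.0% and 41.3%, and that at chr2:25000001-26000000 (60 genes, with Fbxw5) at 47.0%, 67.0% and 45.7%. The protocadherin beta bin, with the most genes of any autosomal bin (67), was lower, at 17.5%, 53.8% and 43.2%. The 3 longest runs without a protein-coding gene, of 4 bins each, lay at 22.4%, 51.2% and 34.6% (chr1:47000001-51000000), 23.5%, 48.2% and 17.1% (chr1:112000001-116000000), and 23.5%, 50.1% and 34.6% (chr2:97000001-101000000), in Cell26, Cell27 and Cell28 in turn. Each desert was below the chr7, chr11 and chr2 bins of the same nucleus.

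The largest clusters were spread as well. The Hoxa cluster lay at 17.8%, 42.1% and 49.8% and the Hoxd cluster at 45.2%, 53.1% and 38.5%. The largest histone cluster, on chromosome 13, lay at 41.0%, 63.2% and 44.4%, and the major histocompatibility complex at 33.0%, 55.6% and 40.6%. The largest olfactory receptor cluster, on chromosome 10 with 50 genes in its bin, lay at 18.9%, 38.9% and 39.6%, low in Cell26 and Cell27 and not in Cell28.

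Chromosomes took a different order along the axis in each of the 3 nuclei. In Cell26 chromosomes 6 (24.2% of the sampled axis) and 12 (24.6%) lay lowest and chromosomes 8 and 11 (42.3% each) highest. In Cell27 chromosomes 6 (47.9%) and 11 (48.8%) lay lowest and chromosomes 12 (56.3%) and 7 (57.8%) highest. In Cell28 chromosomes 15 (28.1%) and 1 (30.9%) lay lowest and chromosomes 13 (41.2%) and 16 (41.8%) highest. Chromosome 11, with 13.5 genes per Mb, was thus at opposite ends in Cell26 and Cell27, and so was chromosome 12, with 5.75.

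**Figure D5:**
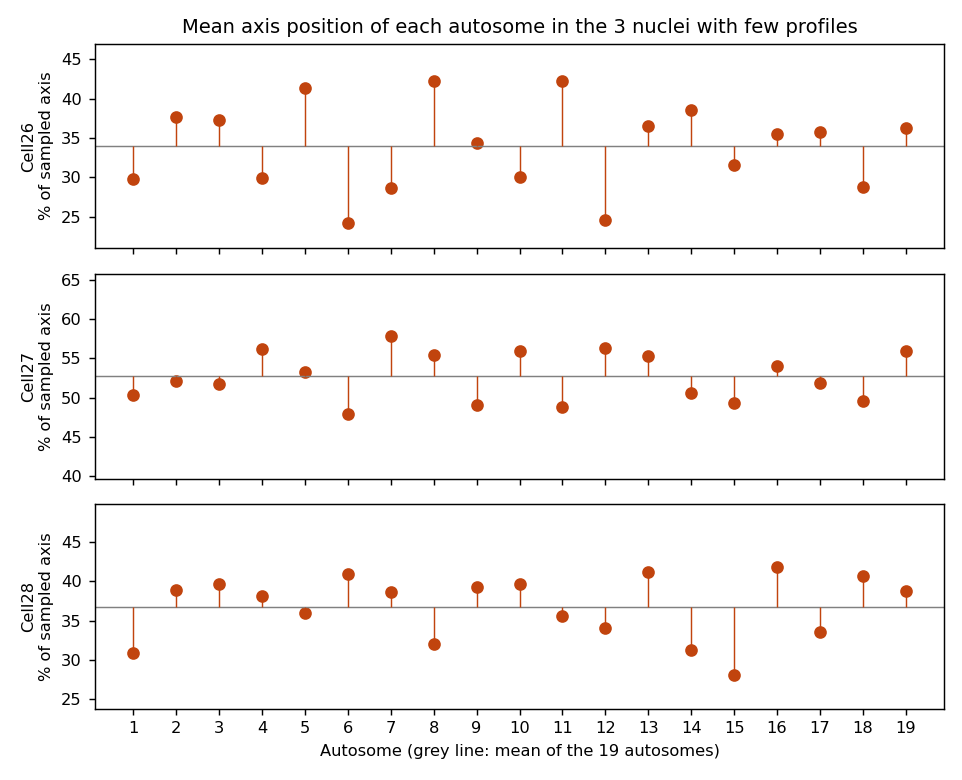
Mean axis position of each autosome (points, percent of the sampled axis) in Cell26, Cell27 and Cell28, with the mean of the 19 autosomes as a grey line. Chromosomes 6 and 12 lie lowest in Cell26, 6 and 11 in Cell27, and 15 and 1 in Cell28.

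The order of the 19 autosomes had Spearman correlations of −0.10 between Cell26 and Cell27, −0.17 between Cell26 and Cell28 and 0.03 between Cell27 and Cell28. Over 2414 autosomal 1 Mb bins the 3 pairs had correlations from 0.038 to 0.131, all positive, against −0.172 to 0.080 among the 21 pairs of nuclei with many profiles. In size without sign the ranges overlapped, since Cell17 and Cell39 had 0.172, above all 3 pairs. The bins share their nucleus and library, and these values are descriptions. Gene density of an autosome and its position correlated at 0.30 in Cell26, 0.14 in Cell27 and −0.09 in Cell28 over the 19 autosomes.

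The width of the chromosome order, as a share of the axis, overlapped between the groups. The lowest and highest autosomes were 18.1 points apart in Cell26, 9.92 in Cell27 and 13.7 in Cell28, within the 6.55 to 24.4 points of the other nuclei. In axis units the ranges were 0.218, 0.139 and 0.192. The share of the variance of bin positions that lay between autosomes was 14.5% in Cell26, 7.99% in Cell27 and 14.5% in Cell28, and 4.0% to 29.7% in the others (difference −1.90 points, exact permutation p = 0.817). The chromosome order in the 2 files of a nucleus, with windows listed in both left out, correlated at 0.451, 0.653 and 0.730, within the 0.081 to 0.944 of the other nuclei (difference 0.040, exact permutation p = 0.833).

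Neighbouring DNA lay close together on the axis in all 3 nuclei. Bins 1 Mb apart had 0.661 times the axis distance of bins on different autosomes in Cell26, 0.738 times in Cell27 and 0.671 times in Cell28, a mean of 0.690 ± 0.042 (SD, n = 3). The nuclei with many profiles had 0.761 ± 0.099 (SD, n = 7), and the groups differed by −0.13 on the log2 scale (exact permutation p = 0.333). At 2 Mb the ratios were 0.779 and 0.835, at 5 Mb 0.875 and 0.876, at 10 Mb 0.898 and 0.899, and at 100 Mb 0.960 and 0.961. Over whole chromosomes the contrast was smaller: bins of different autosomes were 1.10, 1.05 and 1.09 times as far apart as bins of the same autosome in Cell26, Cell27 and Cell28, and 1.02 to 1.23 times in the others (difference −0.01 on the log2 scale, exact permutation p = 0.883).

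With the midpoint of the sampled axis as centre, distance from it gave no common pattern in the 3 nuclei. The distance of a bin from the midpoint was ranked as a percentile over the bins of its nucleus, with low values near the midpoint, and correlated with gene number. The correlation was −0.214 in Cell26, −0.172 in Cell28 and 0.195 in Cell27, so gene-dense bins lay nearer the midpoint in Cell26 and Cell28 and farther in Cell27. The nuclei with many profiles ran from −0.093 to 0.111 (difference −0.090, exact permutation p = 0.317). Gene-dense DNA was above gene-poor DNA in all 3, but both classes had mean positions below the middle of the axis in Cell26 (37.4% and 29.9%) and Cell28 (37.8% and 34.6%), and above it in Cell27 (54.6% and 50.3%). This result depended on the centre: with the median window position in its place the difference was 0.149 in the opposite direction (exact permutation p = 0.00833), without the outermost positions it was −0.171 (exact permutation p = 0.0333), and without Cell27 it was −0.220 (exact permutation p = 0.0278).

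The contrast of gene-poor and gene-rich chromosomes overlapped between the groups. Chromosomes 3, 13, 14 and 18 minus chromosomes 7, 11, 17 and 19 came to 0.35 percentile points in Cell26, −6.42 in Cell27 and −1.92 in Cell28, and from −5.55 to 3.31 in the others (difference −0.78 points, exact permutation p = 0.692, with either sign under other settings). Of single chromosomes, 0% of 20 were under an unadjusted exact permutation p of 0.05 for distance from the midpoint. Chromosome 1 had the largest difference: its percentile was 58.3 in Cell26, 51.3 in Cell27 and 63.0 in Cell28, a mean of 57.5 ± 5.89 against 45.8 ± 7.17, 11.8 points farther out (exact permutation p = 0.05, adjusted p = 0.583). Chromosomes 12 and X had differences of 10.0 and 8.01 points, and chromosomes 16, 5 and 9 had −8.96, −7.57 and −6.61.

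No 1 Mb bin differed in distance from the midpoint after adjustment. Of 2579 bins tested with limma, 0% were called at an adjusted p under 0.05 (0 bins, smallest adjusted p = 0.741), 5.66% (146 bins) had an unadjusted p under 0.05, and 133 bins had an exact permutation p under 0.05. The limma fit gave all bins the same variance here. Its statistic therefore ranks bins by the size of their difference and not by their own spread between nuclei. As a description, the bins with the most extreme statistic nearer the midpoint were chr5:11000001-12000000 (Speer1), chr9:16000001-17000000 (Fat3, an atypical cadherin) and chr9:106000001-107000000 (Iqcf1, Iqcf5, Rrp9). The Fat3 bin had percentiles of 30.4, 24.3 and 18.6 in Cell26, Cell27 and Cell28 and 55.5 to 94.5 in the others. Farther out were chr11:19000001-20000000 (Spred2, an inhibitor of Ras signalling), chr1:9000001-10000000 (Rrs1, Adhfe1, Vxn) and chr1:55000001-56000000 (Plcl1, Boll, Mars2). The last had 78.3, 82.5 and 85.3 in the 3 nuclei and 16.1 to 60.6 in the others.

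Among the 2412 autosomal bins tested, those with at least 11 genes had a median difference of −2.32 percentile points between the groups, with 11 farther out and 34 nearer at an unadjusted limma p under 0.05. Bins with at most 2 genes had a median difference of 2.60 points, with 24 farther out and 14 nearer, and the median of all bins was −0.02. These counts can be read against the 2.56% of bins farther out and the 3.1% nearer over the whole set. The 3 nuclei did not share this split: gene number and distance correlated at 0.195 in Cell27, against −0.214 in Cell26 and −0.172 in Cell28.

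The recovery of windows from gene-dense and gene-poor bins overlapped between the groups. The ratio of windows per bin in the gene-dense over the gene-poor bins was 1.06 in Cell26, 1.24 in Cell27 and 1.29 in Cell28, and 0.968 to 1.47 in the others (log2 difference 0.07, exact permutation p = 0.625, and −0.11 within batch B18F). Of 2584 bins tested with limma on log2 windows relative to the nucleus median, 0% were called (0 bins, smallest adjusted p = 0.159), and 6.85% (177 bins) had an unadjusted p under 0.05, 5.11% higher and 1.74% lower with few profiles. The exact permutation test gave 138 bins under 0.05.

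The bin with the most extreme statistic was chr9:10000001-11000000, which holds Cntn5, a neural cell adhesion gene. Its log2 windows relative to the nucleus median were 1.21 in Cell26, 1.22 in Cell27 and 0.45 in Cell28, and −1.0 to −0.27 in the others, a difference of 1.56 (limma adjusted p = 0.159). It was followed by chr5:16000001-17000000 (Hgf, a growth factor, and Cacna2d1, a calcium channel subunit), with 0.88, 1.19 and 1.25 against −1.19 to 0.50, and by chr7:117000001-118000000 (Xylt1), with 1.65, 0.60 and 1.31 against −0.93 to 0.35. Bins with a difference downwards included chr2:119000001-120000000 (Exd1, Chp1, Ino80), with −1.37, −0.45 and −1.05 against −0.75 to 1.08, and chr16:25000001-26000000 (Tprg and Trp63, the p63 gene of epithelial stem cells). The Trp63 bin was even in the 3 nuclei, at −1.21, −1.17 and −1.17, against −0.79 to 0.80.

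Some bins were called under other settings. Without Cell39, 4 bins were called, all with more windows in the nuclei with few profiles: the Cntn5 and Hgf bins, chr1:4000001-5000000 (Sox17, an endoderm factor, with Rp1 and Mrpl15) and chr12:108000001-109000000 (Eml1, Evl, Cyp46a1). On a linear scale of windows per bin minus the nucleus median 8 bins were called, all higher. That scale was not adjusted for total windows, which were more on average in the nuclei with few profiles. The bins named here were chosen after their values were seen.

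Chromosomes 16 and 3 gave fewer windows on average in the nuclei with few profiles before adjustment, with overlap between the groups. The log2 window density of chromosome 16 relative to all autosomes was −0.74 in Cell26, −0.47 in Cell27 and −0.32 in Cell28, against −0.40 to 0.26 in the others, a difference of −0.47 (exact permutation p = 0.0167, adjusted p = 0.333). Chromosome 3 was at −0.55, −0.31 and −0.45 in the 3 nuclei, and at −0.56 (Cell25, also B18F) to 0.16 in the others. Its difference was −0.40 (exact permutation p = 0.0417, adjusted p = 0.417). Of the 20 chromosomes, 10% were under an unadjusted 0.05 and 0% after adjustment. X had −0.63, −0.53 and −0.84 in the 3 nuclei and −1.17 to 0.31 in the others (difference −0.43, exact permutation p = 0.167), and chromosome 13 differed by −0.41. The largest differences upwards were 0.26 for chromosome 9, 0.24 for chromosome 15 and 0.23 for chromosome 4.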

How the data were processed

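Reads were trimmed and aligned with Trim Galore 0.6.4, Bowtie2 2.3.5 and Picard to mm10, per the submitters' processing notes. How reads became positions, and what files 0 and 1 of a nucleus stand for, is not given in the sources used here. The 20 deposited files list 10 kb windows with a position along an axis, per the file headers, in another unit than a count and with no named unit. They hold 1222168 windows. The 4 positive controls and 1 negative control were not analysed here.

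Positions were averaged per autosomal or X 1 Mb bin and file, and files averaged per nucleus. Genes came from RefSeq GRCm38.p6 (21631 protein-coding genes on these chromosomes). Single values per nucleus were compared by exact permutation, two-sided, with Benjamini-Hochberg adjustment over 10 results or 20 chromosomes. Bins were tested with limma 3.58.1 in R 4.3.3, using log2 of windows plus 1 for recovery. Computations in Python 3.11.15 were tested on simulated data. Members, lists, tests and rules were chosen with earlier results of these data known. Named were fixed loci, extreme chromosomes and, as no bin was called, the 3 bins with the most extreme statistic each way, with up to 3 genes nearest the middle of the bin. For recovery, 1 bin that the rule names is not reported here.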

Additional observations from a re-analysis of the deposited data

Results flagged for a closer look

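The size of the correlation between axis position and gene number per bin differed between nuclei with few and with many profiles by 0.144 (0.184 ± 0.033, n = 3, against 0.040 ± 0.028, n = 7), and it was picked out because the groups differed at an unadjusted exact permutation p of 0.00833. It was larger in 3 of 3 nuclei with few profiles than in any of the 7 others. It did not pass after adjustment over 10 results (adjusted p = 0.0833).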

How the results depend on the processing

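The gene density difference along the axis kept its direction under all 27 alternatives, but its size varied. With files thinned to the smallest it was 0.104 (means 0.139 and 0.035), and with 250 kb bins 0.083. It was under an unadjusted exact permutation p of 0.05 in all but 2, at 0.146 within batch B18F (p = 0.1, the smallest possible) and 0.054 with slice yield partialled out (p = 0.0583). Leaving out 1 nucleus gave 0.127 to 0.160. Single windows, centring within chromosomes, slice yield, leaving out receptor genes and on-grid windows alone were settings chosen after seeing the data. Gene density and distance from the midpoint turned to 0.149 with the median as centre, was −0.171 without the outermost positions, and ran from −0.220 to −0.015 without 1 nucleus. The cause was not tested. Gene-poor minus gene-rich chromosomes turned positive at 0.572 without the 10- and 11-profile nuclei, 0.807 with 250 kb bins, 0.560 without windows in both files, 1.58 with file 1 alone, 0.516 with thinned files, 1.16 with 1 window per bin, 0.703 without the outermost positions and 0.066 with the median as centre, and ran from −2.29 to 1.10 without 1 nucleus. Recovery of gene-dense over gene-poor bins turned to −0.106 within B18F and −0.058 without windows in both files. Order agreement was −0.00042 with those windows kept and ran from −0.042 to 0.120 without 1 nucleus. Without 1 nucleus the between-chromosome share ran from −3.60 to 0.68 points and the same-chromosome distance from −0.028 to 0.016. Apart from gene density along the axis, none of these had an exact permutation p under 0.05 in the main setting. Located windows, evenness and neighbour distance kept their sign but moved: evenness from 1.34 points without the 10- and 11-profile nuclei to 20.5 within B18F, and neighbour distance to −0.016 with 1 window per bin and −0.041 with thinned files. Distinct 1 Mb bins, nearly all located in every nucleus, show no direction. In the alternatives tried, no bin or chromosome by distance from the midpoint, and no chromosome by recovery, was called. Bins called by recovery numbered 0, and 4 without Cell39 (0 to 4 over all nuclei left out) and 8 on a linear scale; the other 14 alternatives called 0. No paired analysis was possible because the nuclei carry no shared replicate numbers. Depth is unknown, since no read counts were used here, and 3 nuclei against 7 limit the precision.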
